A study of Rattus norvegicus with 21 samples.

Results

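The genes of cholesterol synthesis and sterol regulation were followed in a rat insulinoma line with and without exposure to inorganic arsenic. The set held 33 named genes, chosen by symbol for their known roles: the sterol-sensing transcription machinery, the enzymes from acetyl-CoA to cholesterol, carriers of cholesterol inside the cell, and the LXR receptors with their targets. The choice was made with earlier results of these data known. All 33 were found in the mRNA table, and 32 had a mean of at least 10 normalized counts over the 9 libraries, the minimum used for testing, out of 14410 such genes among 32750 in all. The exception was Nr1h3.

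Cells make cholesterol from acetyl-CoA by the mevalonate pathway, which ends in farnesyl diphosphate and also feeds protein prenylation, dolichol and ubiquinone, and by the sterol arm, which turns squalene into lanosterol and then, by removal of methyl groups and rearrangement of double bonds, into cholesterol. When sterol in the endoplasmic reticulum runs low, Scap escorts the SREBP proteins (encoded by Srebf1 and Srebf2) to the Golgi, where they are cut into active transcription factors, while the Insig proteins hold Scap back when sterol is plentiful. Oxysterols that build up activate the LXR receptors (Nr1h2 and Nr1h3), which raise cholesterol export through Abca1 and Abcg1. In beta cells the balance between synthesis and export is known to affect insulin granules and secretion.

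INS-1 832/13, a clone of the insulin-secreting INS-1 line from a rat beta cell tumour, was seeded in 12-well plates 24 h before exposure. Cells were then kept for 24 h untreated, with inorganic arsenic (iAs) at 1 µM, with cadmium (Cd) at 5 µM or with manganese (Mn) at 25 µM. Messenger RNA was sequenced in 4 untreated and 5 iAs libraries, and small RNA in 3 libraries for each of the 4 groups. No allele, transgene or second agent is named in the labels for any group, and nothing in them states that the libraries of a group are separate cultures. The p-values therefore reflect only how far these libraries spread, and that spread may be technical.

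Normalized counts summed to between 51009800 and 55869159 per mRNA library, and all untreated mRNA libraries were sequenced in lane 3 and all iAs mRNA libraries in lane 4, so lane and treatment cannot be told apart. The labels name the tissue as liver. All 15 beta cell markers were above the minimum, among them the insulin genes, and 4 of them were called, Pcsk2 (log2 difference -0.44) and Nkx6-1 (-0.46) lower and Slc2a2 (0.53) and Chga (0.36) higher in the libraries labelled iAs, whereas the hepatocyte gene Alb was listed at 0 in all untreated libraries and Cyp7a1 and Cyp2e1 in all 9. Of 12 hepatocyte markers, 6 were above the minimum: Arg1, Hnf4a, Ass1, Fgb, Serpina1 and Apoa1. Their untreated means were 18641, 4067, 1331, 637, 391 and 11.9 normalized counts. The list summed to 24126 to 25980 normalized counts per untreated library and 23338 to 27177 per iAs library. By limma 2 of the 6 were called lower, Fgb (log2 difference -1.34) and Ass1 (-0.45), and 0 higher. Markers of fibroblasts, endothelium and immune cells summed to 487 to 608 and 400 to 496, with Ptprc listed at 0 throughout. Of their 5 tested genes, 3 were called, Cd74 (80.7 ± 20.6, n = 4, and 13.5 ± 9.74, n = 5, both SD, log2 difference -3.05), Col1a1 (-1.98) and Cd68 (0.83). The called share was 26.7% of the beta cell list, 33.3% of the tested hepatocyte markers and 60% of these 5, against 30.0% of all genes tested. The first 2 shares are near that of all genes, and the third rests on 5 genes. The part of these marker lists in the results below was not tested. Hmox1, the heme oxygenase gene that arsenic is known to induce, had 12135, 14597, 13561 and 16234 normalized counts in the libraries labelled untreated and 1478, 1633, 1175, 2337 and 2074 in those labelled iAs. It was thus lower in every library labelled iAs, and each mRNA direction below rests on the labels as given, for which reason the groups are called "labelled untreated" and "labelled iAs". In such bulk samples fewer cells of a type and less RNA per cell cannot be told apart.

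Promoter sequences of 4 members are shown because they include the largest rise (Hsd17b7), a rise in the sterol arm and a rise in the mevalonate arm (Msmo1 and Hmgcs1) and the fall among the enzymes (Tm7sf2). Each is the 250 bases before the annotated start in the RefSeq assembly GRCr8, written 5′ to 3′ on the strand of the gene, with the NF-Y box (CCAAT, or ATTGG where it lies on the other strand) in capitals. NF-Y is a general factor that is known to bind beside SREBP at sterol-responsive promoters.
Hsd17b7 (chr13:84722755-84723004, minus strand): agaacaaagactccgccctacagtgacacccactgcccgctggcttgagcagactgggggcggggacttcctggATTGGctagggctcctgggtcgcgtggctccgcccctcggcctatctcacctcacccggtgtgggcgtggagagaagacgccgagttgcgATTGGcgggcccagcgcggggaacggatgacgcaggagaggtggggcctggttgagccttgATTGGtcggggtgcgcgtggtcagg
Msmo1 (chr16:29746863-29747112, plus strand): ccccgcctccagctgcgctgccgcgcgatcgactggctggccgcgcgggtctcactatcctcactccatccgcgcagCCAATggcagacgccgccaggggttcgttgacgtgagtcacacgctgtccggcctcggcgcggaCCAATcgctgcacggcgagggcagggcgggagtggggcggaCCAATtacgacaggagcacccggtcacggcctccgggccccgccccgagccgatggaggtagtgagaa
Hmgcs1 (chr2:53382054-53382303, plus strand): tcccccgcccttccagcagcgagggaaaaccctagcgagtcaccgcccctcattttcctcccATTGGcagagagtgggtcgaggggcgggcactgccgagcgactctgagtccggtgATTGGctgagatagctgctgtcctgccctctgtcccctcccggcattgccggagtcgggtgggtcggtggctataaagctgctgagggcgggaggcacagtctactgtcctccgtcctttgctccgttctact
Tm7sf2 (chr1:212789542-212789791, minus strand): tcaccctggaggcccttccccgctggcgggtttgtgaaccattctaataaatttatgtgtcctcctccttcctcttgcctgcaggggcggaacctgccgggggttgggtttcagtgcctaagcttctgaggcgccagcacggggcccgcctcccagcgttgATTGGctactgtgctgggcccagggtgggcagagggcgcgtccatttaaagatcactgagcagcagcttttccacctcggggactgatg

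The stretches of Hsd17b7 and Msmo1 hold 3 boxes each, that of Hmgcs1 holds 2 and that of Tm7sf2 holds 1. Tm7sf2 has a further box at position 18 after the start, outside the stretch shown. Of the other members lower in the libraries labelled iAs, Npc2 has boxes at -230, -202 and -162 and Nr1h2 has none. As the 4 stretches were picked by their differences, they do not show whether box number goes with direction, which was not tested. Of the 32 members above the minimum, 27 matched a RefSeq window from 250 bases before to 50 after the start, and the 5 without one were Abcg1, Fdft1, Pmvk, Sqle and Stard4. On either strand the NF-Y box CCAAT stood in 20 of these 27 members (74.1%), against 37.5% of the 33469 windows in the table. At least 2 boxes stood in 14 of the 27 members and in 11.2% of all windows. The box was present in 7 of 8 members that were higher in the libraries labelled iAs, in 2 of 3 that were lower and in 11 of 16 that were not called, so members with and without a difference carried it. The classical sterol response element TCACCCCAC, searched on both strands, was in 0 of the 27 and in 0.484% of all windows, and with its middle letter free (TCACNCCAC) in 0 and in 1.12%. Its core of 8 letters (CACCCCAC), a search added after the first result was seen, was in Ebp only and in 2.70% of all windows. With a free base in that core (CACNCCAC, which includes the former) Insig1, Acat2 and Ebp had a match, against 5.80% of windows. The E-box CACGTG was in 4 members, Scap, Insig1, Sc5d and Abca1 (14.8%, against 6.42% of windows), and the LXR element DR4 in none. These matches describe the letters of the windows and nothing about binding. As DR4 stood in only 2 of the 33469 windows (0.006%), its absence from the 27 members says nothing about LXR sites. The sterol response element was also rare among all windows (0.484%, or 1.12% with the free letter). Its absence from 27 members therefore says little about SREBP sites.

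Sterol genes were more often higher than lower in the libraries labelled iAs. By limma on log2(normalized counts + 1), with p-values adjusted over all 14410 genes and a threshold of 0.05, 11 of the 32 members were higher, 3 were lower and 18 were not called. The called share was 43.75%, against 30.0% of all genes tested, and the share called higher was 34.4%, against 15.1%. Lower calls made up 14.9% of all genes. As the members were chosen with earlier results of these data known, these shares describe the set and do not test it. The median log2 difference (labelled iAs minus labelled untreated) was 0.15 over the members and -0.000696 over all genes tested. Values of the 2 groups did not overlap for 14 members, against 25.9% of all genes, and 13 of these were among the called. Fdps did not overlap but was not called (adjusted p = 0.0623), and Srebf2 was called although its groups overlap. Most differences were small, as only Hsd17b7, Stard4 and Npc2 went beyond 0.5 in log2 in either direction.

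**Figure D1:**
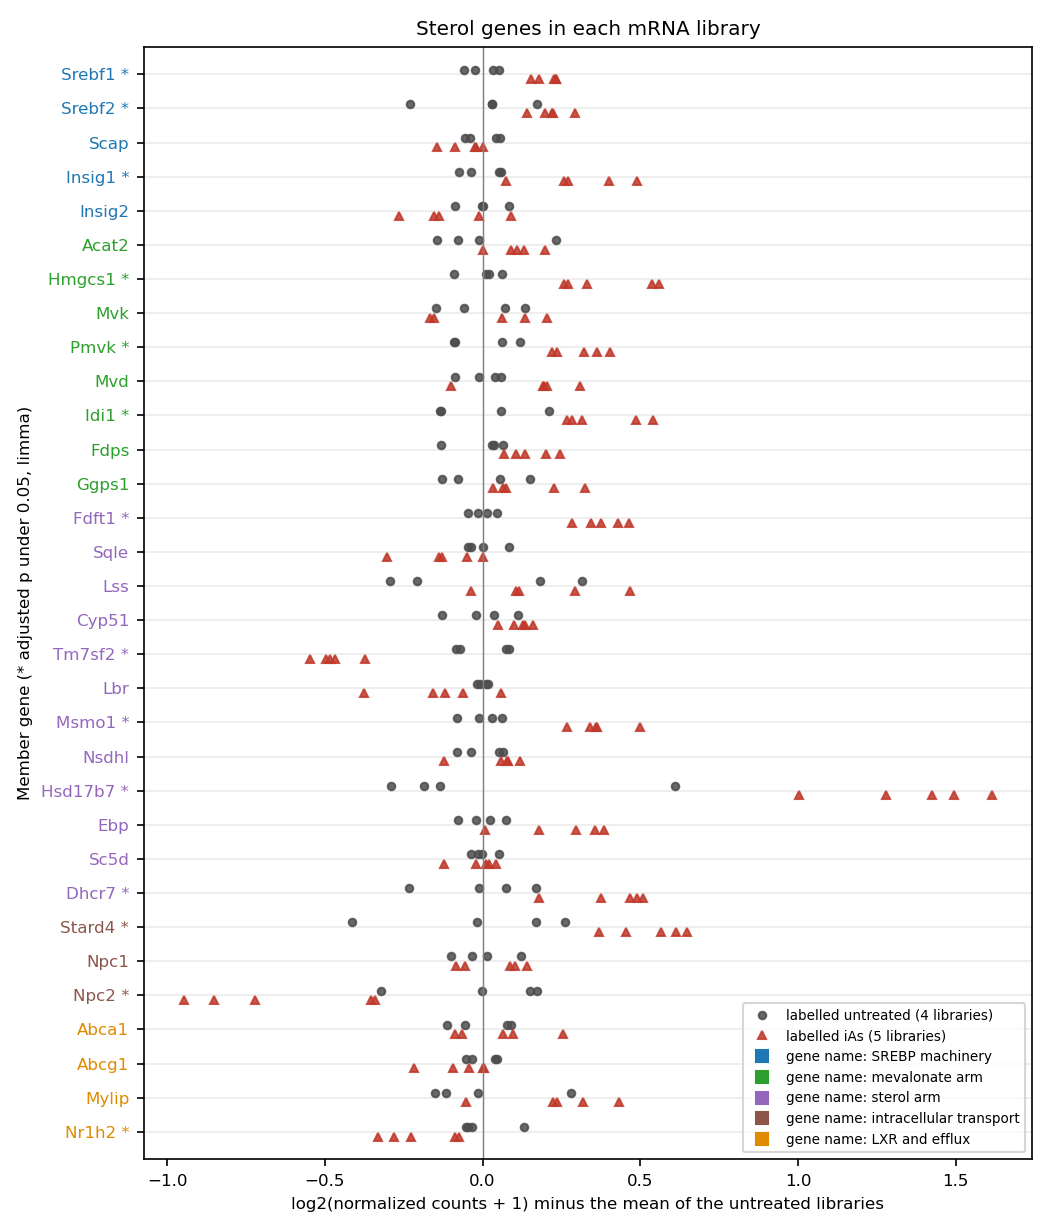
Values of the 32 members in each mRNA library, as log2(normalized counts + 1) minus the mean of the libraries labelled untreated (horizontal axis); circles are the 4 libraries labelled untreated, triangles the 5 labelled iAs, and the colour of a gene name gives its role. All triangles of the 11 members called higher lie to the right of the untreated mean at 0, and those of Tm7sf2, Npc2 and Nr1h2 lie to the left.

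Among the genes of the sterol-sensing machinery, both SREBP genes and Insig1 were higher in the libraries labelled iAs, while Scap and Insig2 were not called. Srebf1 (ENSRNOG00000003463), which encodes the SREBP that mainly drives fatty acid genes, had 9282, 9155, 8587 and 8797 normalized counts in the libraries labelled untreated and 10468, 10523, 9955, 10129 and 10529 in those labelled iAs. The 5 libraries labelled iAs were all above the 4 others, by 1.15 times in the mean and by 0.20 in log2 (SE 0.045, limma adjusted p = 0.00491). Srebf2 (ENSRNOG00000007400) encodes the SREBP that mainly drives cholesterol synthesis. It had 12823, 14146, 12814 and 10705 normalized counts labelled untreated, and 15387, 14616, 14657, 13862 and 14395 labelled iAs. The highest untreated library, replicate 2, stood above the lowest iAs library, replicate 4. Its log2 difference was 0.21 (SE 0.072, adjusted p = 0.0396), a call that was lost in 13 of 20 alternative settings, with adjusted p between 0.0549 and 0.126 there, among them the fits without untreated replicate 1, 3 or 4 and without iAs replicate 1, 2, 3 or 5.

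Insig1 (ENSRNOG00000006859), itself a known SREBP target that retains Scap, had 5209, 4753, 5184 and 4880 normalized counts in the libraries labelled untreated. In those labelled iAs it had 6032, 5269, 5984, 7018 and 6610. Replicate 2 of the libraries labelled iAs came close to the untreated range, and the other 4 stood well above it. The log2 difference was 0.30 (SE 0.076, adjusted p = 0.0112), or 1.23 times in the mean. Insig2 (ENSRNOG00000002478), the second Insig gene, which is known for its independence of SREBP, had 706, 705, 748 and 664 normalized counts labelled untreated, and 699, 586, 641, 634 and 750 labelled iAs. These ranges overlap, and the log2 difference of -0.10 (95% interval -0.28 to 0.094) was not called (adjusted p = 0.442). Scap (ENSRNOG00000020853), the SREBP escort, had 3302, 3492, 3263 and 3526 normalized counts labelled untreated and 3338, 3344, 3398, 3070 and 3191 labelled iAs. Its values overlapped as well, with a log2 difference of -0.06 (95% interval -0.17 to 0.058, adjusted p = 0.458).

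The mevalonate arm held 8 enzymes, and 3 of them, Hmgcs1, Pmvk and Idi1, were higher in the libraries labelled iAs. The other 5 were not called. All 8 differences were positive, as were those of 7187 of all 14410 genes tested. The sign turned in 6 of 20 alternative settings for Mvk and in 1 for Acat2. Hmgcs1 (ENSRNOG00000016552), HMG-CoA synthase, had 1709, 1651, 1662 and 1538 normalized counts labelled untreated and 2413, 2062, 2376, 1961 and 1978 labelled iAs. The groups were clearly apart, by 1.32 times in the mean and 0.39 in log2 (SE 0.077, adjusted p = 0.00254). Within the libraries whose code ends in 52 alone (2 untreated, 3 iAs) the adjusted p was 0.0546. Pmvk (ENSRNOG00000020696), which adds the second phosphate of the mevalonate chain, had 1326, 1193, 1197 and 1380 normalized counts labelled untreated and 1637, 1481, 1682, 1590 and 1497 labelled iAs. Here too no value of the first group reached the second, and the log2 difference was 0.31 (SE 0.069, adjusted p = 0.00571). Idi1, the isomerase that makes the starter unit of isoprenoid chains, ran from 1124 to 1429 normalized counts labelled untreated and from 1487 to 1796 labelled iAs (log2 difference 0.38, adjusted p = 0.00779, and 0.0826 in code ending 52 alone).

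Acat2 (the cytosolic thiolase), Mvk (mevalonate kinase), Mvd (the decarboxylase), Fdps (farnesyl diphosphate synthase) and Ggps1 (geranylgeranyl diphosphate synthase) had log2 differences between 0.016 (Mvk) and 0.16 (Mvd), with adjusted p between 0.0623 (Fdps) and 0.926 (Mvk). Acat2 ran from 654 to 851 normalized counts labelled untreated and from 724 to 828.9 labelled iAs, and Mvk from 587 to 714 and from 579 to 750. For Ggps1 the ranges were 1123 to 1364 and 1257 to 1539. These 3 overlapped between the labels, whereas Fdps, at 6301 to 7220 and 7236 to 8184, did not by a small margin. For Mvd, replicate 2 labelled iAs had 1775 normalized counts, below all 4 untreated libraries (1787 to 1980). The other 4 libraries labelled iAs had 2168 to 2355. Without replicate 2 labelled iAs, Mvd (limma adjusted p = 0.0168) and Fdps (adjusted p = 0.0490) were called higher. That was the only 1 of 20 alternative settings in which either was called. RefSeq names close copies or pseudogenes of Acat2, Idi1, Fdps, Cyp51 and Nsdhl, so the share of reads counted for each of these is uncertain.

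In the sterol arm, 4 of 12 enzymes were higher in the libraries labelled iAs (Fdft1, Msmo1, Hsd17b7 and Dhcr7), 1 was lower (Tm7sf2) and 7 were not called. Fdft1 (ENSRNOG00000021314), squalene synthase, commits farnesyl diphosphate to sterols. It had 1240, 1189, 1214 and 1165 normalized counts labelled untreated and 1524, 1464, 1658, 1618 and 1559 labelled iAs. The untreated values were close together (SD 32.5 around 1202), and the libraries labelled iAs stood 1.30 times higher in the mean (log2 difference 0.38, SE 0.060, adjusted p = 0.000642). The next enzyme, squalene epoxidase (Sqle), was not called, with 5140 to 5615 normalized counts labelled untreated and 4302 to 5310 labelled iAs (log2 difference -0.12, adjusted p = 0.165).

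Msmo1 and Hsd17b7 belong, with Nsdhl, to the complex that strips methyl groups from the sterol ring. Msmo1 (ENSRNOG00000032297), the oxygenase that starts the reaction, had 2930, 2846, 2710 and 2996 normalized counts labelled untreated and 3681, 3457, 4058, 3632 and 3687 labelled iAs. All libraries labelled iAs were above all others, with a log2 difference of 0.37 (SE 0.057, adjusted p = 0.000624). Hsd17b7 (ENSRNOG00000002826), the keto reductase of the complex, had 54.1, 50.3, 56.2 and 94.6 normalized counts labelled untreated and 167, 191, 176, 151 and 125 labelled iAs. Its mean rose 2.54 times, being 63.8 ± 20.7 (SD, n = 4) labelled untreated and 162 ± 25.4 (SD, n = 5) labelled iAs, and untreated replicate 4 was the untreated library nearest to those labelled iAs. On the log2(value + 1) scale the difference was 1.36 (SE 0.21, adjusted p = 0.000597). Nsdhl, the dehydrogenase between them, ran from 1178 to 1303 normalized counts labelled untreated and from 1145 to 1352 labelled iAs, and its log2 difference of 0.042 (95% interval -0.11 to 0.19) was not called (adjusted p = 0.683).

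Dhcr7 (ENSRNOG00000020776), the reductase of the last step of one branch, had 3745, 3307, 3506 and 2835 normalized counts labelled untreated and 4320, 3771, 4610, 4678 and 4740 labelled iAs. The lowest of the second group, replicate 2, was just above the highest of the first, replicate 1, and the log2 difference was 0.40 (SE 0.088, adjusted p = 0.00482). Ebp, the sterol isomerase, with 677 to 750 normalized counts labelled untreated and 717 to 932 labelled iAs, came close to a call (log2 difference 0.25, adjusted p = 0.0544) and passed it in 4 of the alternative settings. Sc5d, the desaturase that acts after it, had almost equal means (2033 ± 52.9, n = 4, and 2014 ± 88.6, n = 5, both SD), with overlapping ranges of 1981 to 2106 and 1866 to 2092. Cyp51, the lanosterol demethylase, had 4916 to 5810 normalized counts labelled untreated and 5563 to 6002 labelled iAs (log2 difference 0.11, adjusted p = 0.139).

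Tm7sf2 and Lbr encode sterol reductases that can carry out the same step after Cyp51, Lbr being also a protein of the inner nuclear membrane that binds chromatin. Tm7sf2 (ENSRNOG00000020989) had 2029, 2281, 2047 and 2266 normalized counts labelled untreated and 1527, 1557, 1662, 1472 and 1538 labelled iAs. It was the only enzyme gene called lower, at 0.72 times its untreated mean in the libraries labelled iAs (log2 difference -0.47, SE 0.062, adjusted p = 0.000187), and it had the smallest adjusted p of all members. Lbr (ENSRNOG00000052574) had 1363, 1353, 1380 and 1388 normalized counts labelled untreated and 1429, 1315, 1264, 1056 and 1229 labelled iAs. Its untreated values were within a narrow range, those labelled iAs lay on both sides of it, and the log2 difference of -0.13 (95% interval -0.31 to 0.047) was not called (adjusted p = 0.254).

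**Figure D2:**
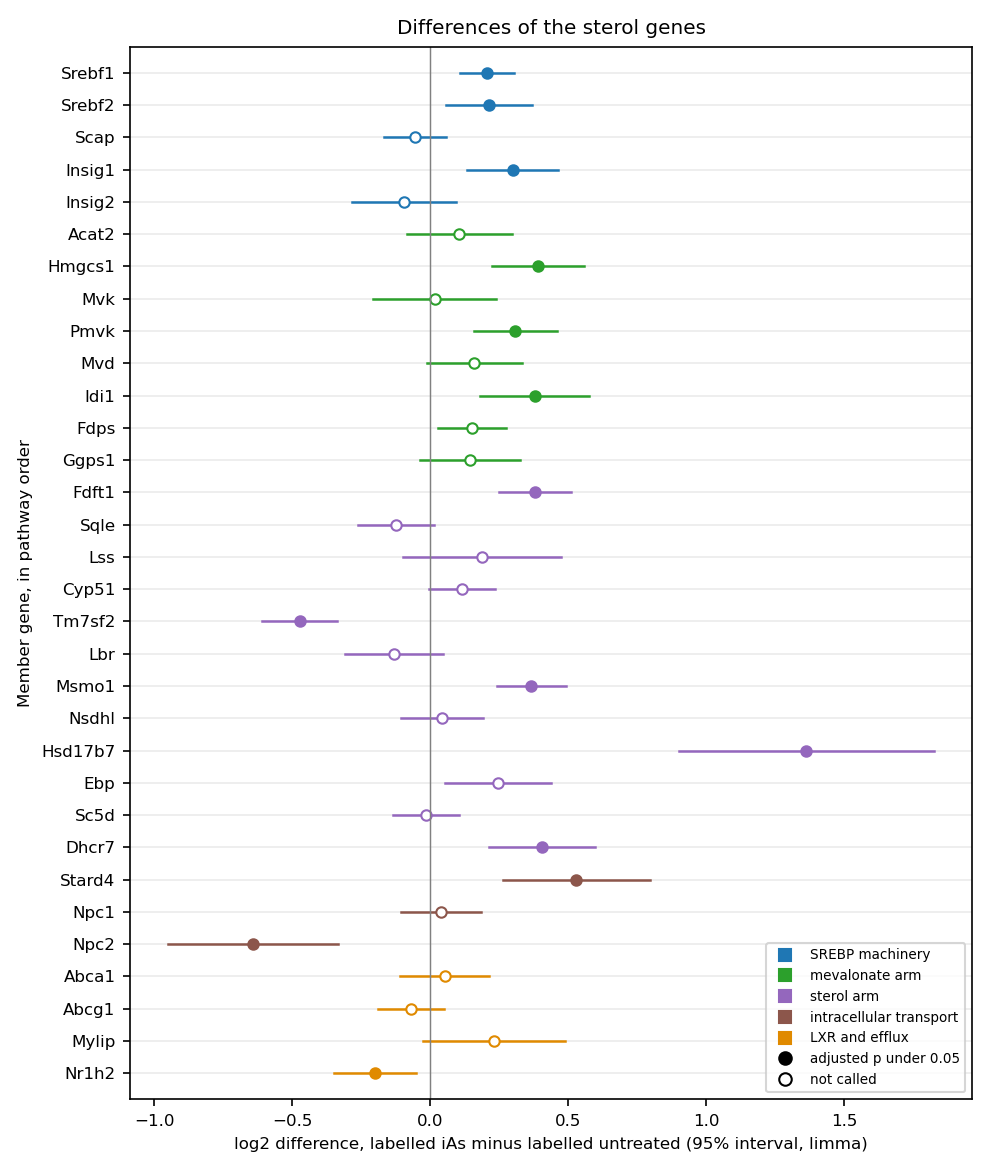
Log2 difference of each member (labelled iAs minus labelled untreated, horizontal axis) with its 95% interval from limma, in pathway order and coloured by role; filled points have an adjusted p under 0.05. Filled points lie to the right in the first 3 roles except Tm7sf2 at -0.47, Hsd17b7 stands far out at 1.36, and Stard4 (0.53) and Npc2 (-0.64) point in opposite directions.

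Cholesterol carriers inside the cell went in both directions. Stard4 (ENSRNOG00000020468) encodes a soluble sterol carrier between membranes and is a known SREBP target. It had 1125, 987, 1199 and 750 normalized counts labelled untreated and 1480, 1292, 1369, 1529 and 1567 labelled iAs. Untreated replicate 4 was low, the groups did not overlap, and the mean was 1.43 times higher in the libraries labelled iAs (log2 difference 0.53, SE 0.12, adjusted p = 0.00660). Npc2 (ENSRNOG00000012062), the soluble lysosomal protein that hands cholesterol to Npc1, had 2796, 2237, 3104 and 3155 normalized counts labelled untreated and 1697, 1551, 1452, 2209 and 2187 labelled iAs. Replicates 4 and 5 labelled iAs lay just under the lowest untreated library, replicate 2, and the other 3 lay far below. Npc2 fell to 0.64 times its untreated mean (log2 difference -0.64, SE 0.14, adjusted p = 0.00488). Its membrane partner Npc1 was not called, with 2446 to 2853 normalized counts labelled untreated, 2476 to 2895 labelled iAs and a log2 difference of 0.038 (95% interval -0.11 to 0.18, adjusted p = 0.705).

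Of the 4 tested genes of the LXR and export group, 1 was lower, Nr1h2, and 3 were not called. Abca1 (ENSRNOG00000018126), which exports cholesterol to lipid-poor apolipoprotein, had 8632, 8281, 9466 and 9540 normalized counts labelled untreated and 10687, 9383, 9576, 8442 and 8560 labelled iAs. Replicate 1 labelled iAs was highest and the rest were mixed with the untreated values (log2 difference 0.052, 95% interval -0.11 to 0.21, adjusted p = 0.634). Abcg1 (ENSRNOG00000001158), which moves cholesterol toward lipoprotein particles and acts inside beta cells on granules, had 9238, 9714, 9128 and 9774 normalized counts labelled untreated and 8868, 9186, 8139, 9483 and 9460 labelled iAs. These overlapped too (log2 difference -0.07, 95% interval -0.19 to 0.050, adjusted p = 0.373). Mylip, an LXR target whose protein marks lipoprotein receptors for destruction, had 447 to 603 normalized counts labelled untreated and 479 to 671 labelled iAs, a log2 difference of 0.23 that was not called (adjusted p = 0.163).

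Nr1h2 (ENSRNOG00000019812), the broadly expressed LXR beta gene, had 3401, 3814, 3353 and 3367 normalized counts labelled untreated and 3302, 2864, 3275, 2762 and 2974 labelled iAs. Untreated replicate 2 stood above the other 3, and replicates 1 and 3 labelled iAs lay just below the untreated range. The log2 difference of -0.20 (SE 0.069, adjusted p = 0.0444) lost its call in 13 of 20 alternative settings, with adjusted p between 0.0508 and 0.193 there, among them the fits without any 1 of the untreated libraries and without iAs replicate 2, 4 or 5. Nr1h3 (ENSRNOG00000013172), the LXR alpha gene and the member under the minimum, had 0, 4.18, 2.44 and 5.91 normalized counts labelled untreated and was listed at 0 in all 5 libraries labelled iAs.

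Within-library ratios set related members against each other without regard to the scaling of a library. Only the change of a ratio is read here, since read counts of genes of unequal length cannot be compared as levels. The log2 ratio of Lbr to Tm7sf2 was -0.57, -0.75, -0.57 and -0.71 labelled untreated and -0.10, -0.24, -0.39, -0.48 and -0.32 labelled iAs. It shifted toward Lbr by 0.34, with all 5 libraries labelled iAs above all 4 others (two-sided exact permutation test, p = 0.0159, the smallest that 126 splits allow, adjusted p = 0.0397 over 5 pairs). The log2 ratio of Insig1 to Insig2 was 2.88, 2.75, 2.79 and 2.88 labelled untreated and 3.11, 3.17, 3.22, 3.47 and 3.14 labelled iAs. It shifted toward Insig1 by 0.39, again without overlap (exact permutation test, p = 0.0159, adjusted p = 0.0397). In log2, Lbr itself differed by -0.13 and Tm7sf2 by -0.47, so the shift toward Lbr came without a higher Lbr. Tm7sf2 and Insig1 alone already separate the labels in the same libraries, so these 2 ratios are no separate support. With any 1 library left out, neither pair could pass the threshold after adjustment (exact permutation test, adjusted p from 0.0595 to 0.0893), as fewer splits are left.

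Srebf1 and Srebf2 kept their ratio within the spread between libraries, with a shift of -0.01 in log2 (exact permutation test, p = 0.968, adjusted p = 0.968). Abca1 to Abcg1 shifted by 0.12 with overlapping values (exact permutation test, p = 0.333, adjusted p = 0.417). The ratio of the LXR genes, Nr1h3 to Nr1h2, shifted by -1.54 (exact permutation test, p = 0.0952, adjusted p = 0.159), a value that the pseudocount of 1 sets for the most part because Nr1h3 was at or near 0.

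**Figure D3:**
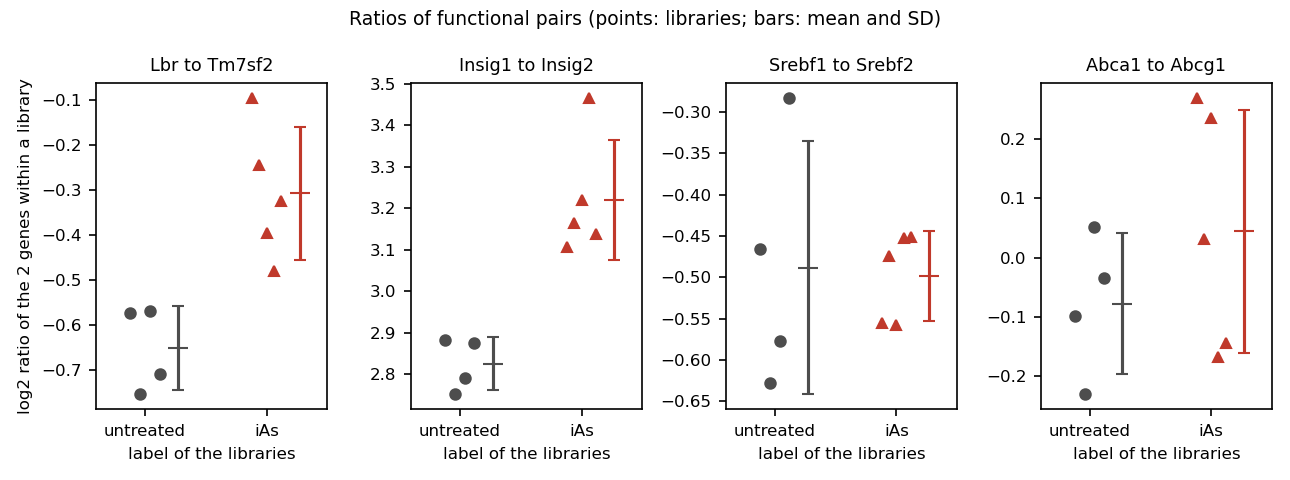
Log2 ratio of 2 related genes within each mRNA library (vertical axis, own scale per panel); points are libraries, and bars give the mean and SD of the 4 libraries labelled untreated and the 5 labelled iAs. The ratios of Lbr to Tm7sf2 and of Insig1 to Insig2 do not overlap between the labels, while those of Srebf1 to Srebf2 and of Abca1 to Abcg1 do.

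Libraries differed in how far the sterol genes stood above the untreated mean. The 11 members called higher, which were chosen by this same difference, had a median log2 difference from that mean of 0.36 in replicate 1, 0.27 in replicate 2, 0.46 in replicate 3, 0.34 in replicate 4 and 0.36 in replicate 5. Replicate 2 was the lowest of its group for 10 of the 20 synthesis enzymes, and among the untreated libraries replicate 1 was the highest for 11 and replicate 2 the lowest for 10. The library codes have 3 endings, a mark whose meaning the labels do not give, and each occurs under both labels: 52 in 2 untreated and 3 iAs libraries, a second in untreated replicate 2 and iAs replicate 3, and the third in untreated replicate 4 and iAs replicate 2. The second and the third held 1 library of each label and allow no test. Hsd17b7 differed by 1.39 in log2 within ending 52, 1.79 within the second and 1.01 within the third, and Npc2 by -0.55, -0.62 and -1.02.

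Lss, lanosterol synthase, was singled out after its values were seen because it followed the endings. Untreated libraries of ending 52 had 3240 and 3053 normalized counts, that of the second ending had 4248 and that of the third had 4658. Among libraries labelled iAs, those of ending 52 had 4051, 3645 and 4024, that of the second had 5176 and that of the third had 4582. Across all libraries the difference of 0.19 in log2 was not called (adjusted p = 0.308). Within the endings it was 0.31, 0.28 and -0.02, given as a description with no test because the gene was chosen for this pattern.

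**Figure D4:**
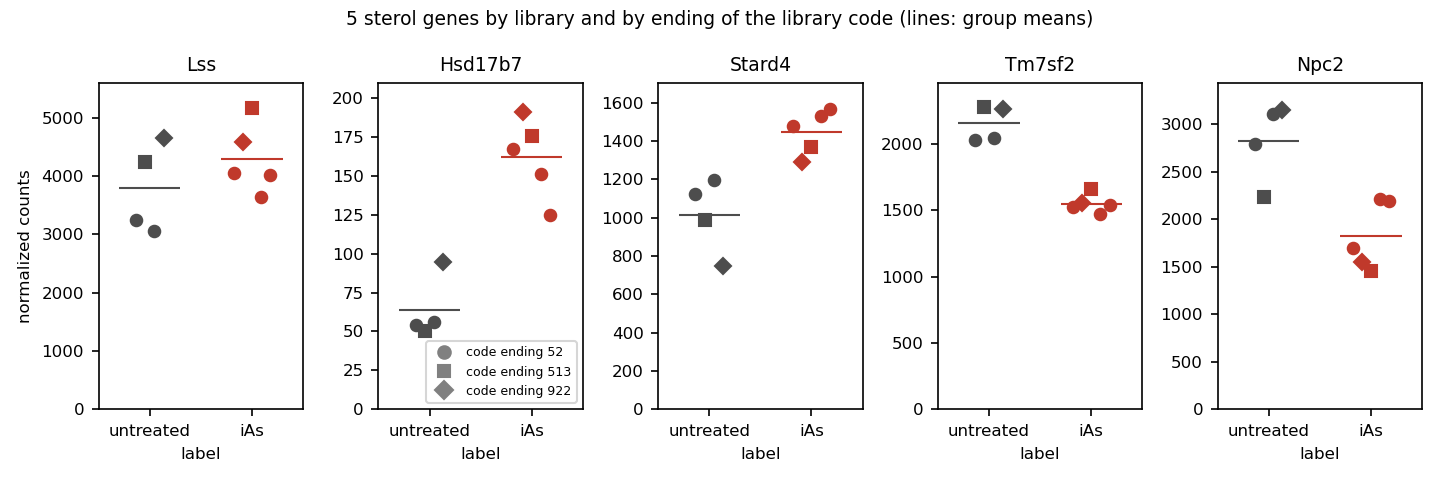
Normalized counts (vertical axis from 0) of Lss, Hsd17b7, Stard4, Tm7sf2 and Npc2 in each mRNA library, by label and by the ending of the library code (marker shape); horizontal lines are group means. Lss is lowest in the circles (ending 52) under both labels, while the other 4 genes separate by label in every library.

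Genes next to the pathway were taken from lists made with earlier results of these data known, and their counts are to be set beside the 30.0% of all genes called (15.1% higher, 14.9% lower). Fatty acid genes regulated by SREBP-1 were mostly higher, at 7 of 11 tested members higher and 1 lower (72.7% called), with a median log2 difference of 0.36. Acaca, acetyl-CoA carboxylase, which starts fatty acid synthesis, averaged 2055 ± 205 normalized counts labelled untreated (SD, n = 4) and 3355 ± 391 labelled iAs (SD, n = 5), a log2 difference of 0.70. The lower member was Me1, malic enzyme, which supplies NADPH (13212 ± 583 to 9750 ± 451, log2 difference -0.44).

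Among 13 genes of SREBP processing and sterol-regulated protein degradation, 2 were higher and 3 lower (38.5% called), near the share of all genes, and their median was -0.03. The lower ones included Pgrmc1, a heme- and sterol-associated membrane protein (33120 ± 785, n = 4, to 20411 ± 1567, n = 5, both SD, log2 difference -0.70), and Usp20, a deubiquitinase of sterol synthesis (-0.35). Of 12 tested genes of the isoprenoid branches, 25% were called: 1 was higher (Rabggtb, a subunit of the Rab prenyl transferase, 0.31) and 2 were lower (among them the dolichol kinase gene Dolk, -0.34), and the lower count was 1 without untreated replicate 1, 3 or 4 or iAs replicate 1, 2, 3 or 4. Storage, uptake and transfer genes had 5 lower and 1 higher of 17 (35.3% called), again near the share of all genes. They leaned toward lower calls (14.9% of all genes were lower), with a median log2 difference of -0.13. Those of smallest adjusted p were Scarb1, the receptor for high-density lipoprotein (20099 ± 1441, n = 4, to 15611 ± 455, n = 5, both SD, log2 difference -0.36), and Soat1, which esterifies cholesterol for storage (2534 ± 149 to 1832 ± 294, log2 difference -0.48). Their lower count was 2 without untreated replicate 1 and 3 without untreated replicate 3 or iAs replicate 1, 3 or 4. LXR partners and further LXR targets had 0 of 10 called by limma and 0 at an unadjusted p under 0.05, with a median of 0.037. Oxysterol and bile acid enzymes were largely under the minimum (2 of 6 tested), and Hsd3b7, a dehydrogenase of bile acid synthesis, was lower by -0.54 in log2.

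Small RNA libraries held microRNAs of precursors with a known link to sterol genes, called sterol-linked here. Rows were picked by name alone, so either arm of a precursor can be among them. Whether a given arm acts on sterol genes was not tested. These libraries allow iAs, Cd and Mn to be set side by side against 1 untreated group that the 3 comparisons share. Mature sequences are shown for the rows that were called, with miR-33 as the microRNA encoded inside Srebf2 and known to repress Abca1, and miR-27a as the relative of miR-27b. They are from RefSeq (GRCr8), 5′ to 3′, with the seed (bases 2 to 8), which pairs with targets, in capitals.
miR-33-5p: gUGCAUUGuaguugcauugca
miR-27b-5p: aGAGCUUAgcugauuggugaacag
miR-27b-3p: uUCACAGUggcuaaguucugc
miR-27a-3p: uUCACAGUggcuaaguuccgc
miR-148a-5p: aAAGUUCUgagacacucugacuc
miR-185-5p: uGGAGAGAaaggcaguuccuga
miR-106b-3p: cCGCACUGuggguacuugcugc
miR-128-3p: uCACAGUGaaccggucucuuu

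MiR-27a-3p and miR-27b-3p share the seed UCACAGU, and the other 6 sequences each have a seed of their own. The rows named miR-128-1-3p and miR-128-2-3p have the same mature sequence and are not separate measurements. Values are RPMMM, reads scaled to 1000000 reads mapped to microRNAs in each library. Averaged over the libraries, 36 sterol-linked rows reached the minimum of 10, and 18 of these were forms with a shifted start. With 4 groups in 1 limma fit and p-values adjusted over all 523 rows, iAs against untreated had 1 of the 36 rows higher and 4 lower (13.9%, against 8.41% of all rows). Cd had 0 called by limma, with 3 at an unadjusted p under 0.05 (10.5% of all rows were called), and Mn had 1 higher and 2 lower (8.33%, against 7.46%).

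MiR-33-5p had 54.9, 37.5 and 42.5 RPMMM in the untreated libraries, 34.3, 43.8 and 36.0 with iAs, 38.3, 32.9 and 32.8 with Cd and 24.8, 37.7 and 25.5 with Mn. Untreated replicate 1 was highest, and each metal group overlapped the untreated range. Against untreated the log2 differences were -0.23 with iAs (SE 0.17, limma adjusted p = 0.374), -0.35 with Cd (SE 0.17, adjusted p = 0.188) and -0.61 with Mn (SE 0.17, adjusted p = 0.0442). Only the last was called, the call was lost in 11 of 19 alternative settings, including the replicate block (adjusted p = 0.0590) and those without untreated replicate 1 or 2, iAs replicate 1 or 3, Cd replicate 1 or 3 or Mn replicate 1 or 3 (adjusted p from 0.0504 to 0.197), and no difference between metals was called (adjusted p from 0.148 to 0.799). MiR-33-3p was under the minimum in all groups, at 2.37 to 4.58 RPMMM. In the mRNA libraries its host gene Srebf2 was higher under the iAs label, by 0.21 in log2, as given above, while the small RNA was measured in other libraries.

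MiR-27b-5p had 256, 273 and 293 RPMMM in the untreated libraries, 207, 192 and 195 with iAs, 260, 270 and 271 with Cd and 328, 328 and 326 with Mn. It was lowest in every iAs library and highest in every Mn library. Against untreated it fell by 0.47 in log2 with iAs (SE 0.067, limma adjusted p = 0.000628) and differed by 0.26 with Mn (SE 0.067, adjusted p = 0.0376) and by -0.04 with Cd (adjusted p = 0.778). The call with Mn was lost in 10 of 20 alternative settings, among them the replicate block and those without untreated replicate 1 or 2, iAs replicate 3, Cd replicate 3 or any 1 of the Mn libraries (adjusted p from 0.0590 to 0.136). The difference itself was called between iAs and Cd (-0.43, adjusted p = 0.00351), between iAs and Mn (-0.72, adjusted p = 3.1e-05) and between Cd and Mn (-0.29, adjusted p = 0.0187). From the other arm of the same precursor, miR-27b-3p had 22653, 20251 and 20381 RPMMM untreated, 17641, 18204 and 17958 with iAs, 19472, 19873 and 20661 with Cd and 20196, 21044 and 19811 with Mn. It too was lowest in the iAs libraries (log2 difference from untreated -0.23, SE 0.052, adjusted p = 0.0125), with the call lost without iAs replicate 1 or 3 and with the 2 groups alone (adjusted p from 0.0525 to 0.0853). Its seed relative miR-27a-3p had group means of 165 (untreated), 178 (iAs), 169 (Cd) and 166 (Mn), and was not called.

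MiR-148a-5p had 283, 244 and 243 RPMMM untreated, 276, 257 and 287 with iAs, 234, 261 and 280 with Cd and 174, 189 and 183 with Mn. Only the Mn libraries stood apart, below all 9 others, by -0.49 in log2 from untreated (SE 0.086, adjusted p = 0.00915). Mn also differed from iAs (iAs minus Mn 0.58, adjusted p = 0.000446) and from Cd (Cd minus Mn 0.50, adjusted p = 0.00633). From the other arm of that precursor, the far more abundant miR-148a-3p averaged 19510.5 RPMMM untreated and 16650 with Mn. It was not called with Mn (log2 difference -0.23, limma adjusted p = 0.0784) or in any other comparison. MiR-185-5p, which is known to act on SREBP genes, had 227, 217 and 236 RPMMM untreated and 282, 259 and 286 with iAs, a log2 difference of 0.28 (SE 0.073, adjusted p = 0.0373). MiR-106b-3p (-0.22, adjusted p = 0.0403) and miR-128-1-3p (-0.18, adjusted p = 0.04996, and 0.0501 for the identical miR-128-2-3p) were lower with iAs, close to the threshold. MiR-106b-5p, from the other arm of the miR-106b precursor, was not called with iAs (-0.39, limma adjusted p = 0.0587). Calls against untreated were lost in 8 of 20 alternative settings for miR-185-5p (among them the replicate block and the fits without untreated replicate 1 or 2, iAs replicate 1 or 3, Cd replicate 3 or Mn replicate 2), in 13 for miR-106b-3p and in 18 for miR-128-1-3p. Among the 36 rows, iAs and Mn differed in 9 (25%, against 17.0% of all rows), iAs and Cd in 1 (2.78%, against 2.87%, or 8 of all 523 rows in place of 15 with the replicate block) and Cd and Mn in 2 (5.56%, against 7.46%).

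**Figure D5:**
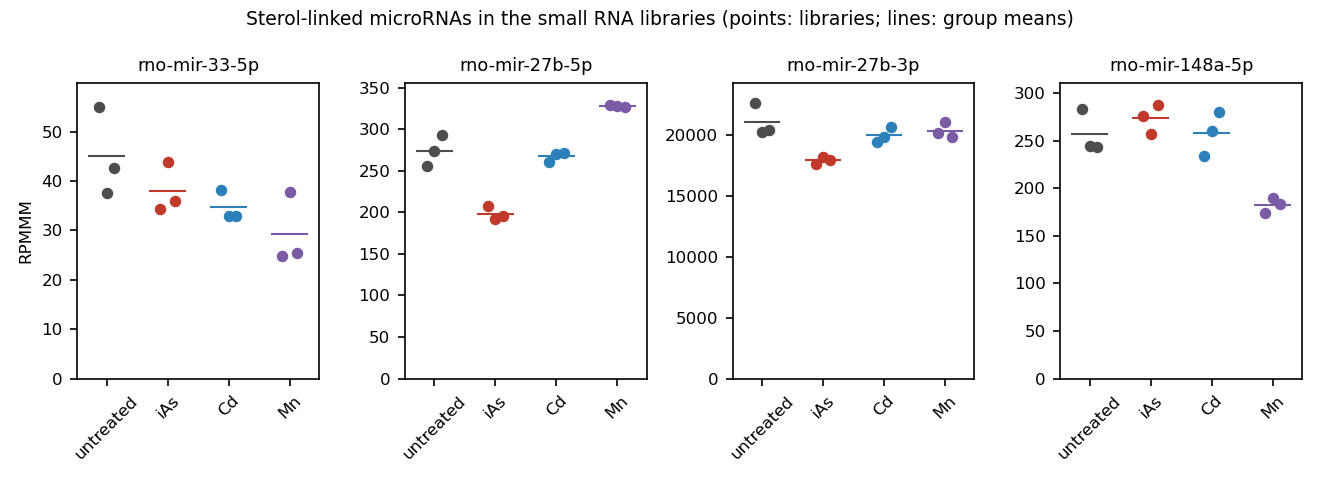
RPMMM (vertical axis from 0) of miR-33-5p, miR-27b-5p, miR-27b-3p and miR-148a-5p in the 3 small RNA libraries of each group; points are libraries and lines group means. MiR-27b-5p is lowest with iAs (192 to 207) and highest with Mn (326 to 328), and miR-148a-5p is lowest with Mn (174 to 189).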

How the data were processed

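The mRNA values are a signal made by the authors, who normalized gene counts with DESeq2, per the labels. The submitters' processing notes also name STAR, Salmon and the build rn6; versions, roles and annotation are not given in the sources used here. Small RNA rows were deposited in RPMMM, an RPM unit over reads mapped to microRNAs, and each library sums to about 1000000. The deposited values hold no raw counts, so the number of reads behind a value is unknown and no count model was run. Libraries were matched to the tables by the code in the description of each sample; titles of 4 mRNA libraries carry the code of another library of their own group.

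Values were tested with limma 3.58.1 (limma-trend, R 4.3.3) on log2(value + 1), a scale that understates the change of low genes, for rows with a mean of at least 10, with Benjamini-Hochberg adjustment over all rows of a comparison and a threshold of 0.05. Ratios of 5 gene pairs were tested with exact permutation tests (scipy 1.17.1). The members and all lists were chosen with earlier results of these data known. All members are accounted for: values in every library are given for the 10 called members of smallest adjusted p and for the regulators, efflux genes, Tm7sf2 and Lbr, other members by range, and 2 called genes at most per neighbouring list. Alternatives were other pseudocounts, filters and scalings, a replicate block, each library left out, the code ending, and 2 groups alone.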

Additional observations from a re-analysis of the deposited data

Results flagged for a closer look

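In 3 of the 72 groups of 4 or 5 mRNA libraries examined, 1 library lay far from the rest of its group, and chance alone does so in about 5% of groups. They were Nsdhl in replicate 1 labelled iAs (1145 normalized counts, against 1299 to 1352 in the other 4), Hsd17b7 in untreated replicate 4 (94.6) and Nr1h2 in untreated replicate 2 (3814). Without that library Hsd17b7 remained called and Nr1h2 did not.

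The sterol-linked microRNAs had 12 differences between metals past the threshold (limma, adjusted over all rows of the comparison). MiR-27b-5p differed in every pair, at -0.72 in log2 for iAs minus Mn, -0.43 for iAs minus Cd and -0.29 for Cd minus Mn. Its form with a shifted start differed by -0.64 for iAs minus Mn. MiR-148a-5p differed by 0.58 for iAs minus Mn and by 0.50 for Cd minus Mn. The remaining differences were all iAs minus Mn: -0.18 for miR-27b-3p and -0.20 for its shifted form, -0.31 for miR-106b-3p and -0.35 for its shifted form, and -0.20 for miR-128-1-3p and for miR-128-2-3p, which are 1 sequence. The call was lost in 15 of 20 alternative settings for the shifted form of miR-27b-3p, in 11 of 19 for that of miR-106b-3p, in 8 for miR-27b-3p, in 6 for miR-27b-5p between Cd and Mn, in 5 for miR-128-2-3p, in 2 for miR-128-1-3p and in 1 for miR-148a-5p between Cd and Mn, and in none of the settings run for the other 5.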

How the results depend on the processing

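Over 20 alternative settings of the mRNA fit, 10 to 13 members were called higher and 2 to 3 lower, and 10 of the 14 called members kept direction and call in all; the other 4 were Srebf2, Nr1h2, Hmgcs1 and Idi1. With a replicate block, which leaves out iAs replicate 5, 2766 genes were called in place of 4321, and 12 of the 14 members remained called. Same-numbered mRNA libraries correlated at 0.031, -0.037, 0.0077 and -0.041 in their deviations, which gives no sign of pairing by number but cannot exclude it. The largest positive correlation between the labels was 0.174, for untreated replicate 4 with iAs replicate 2, which share a code ending. Same-numbered small RNA libraries correlated at 0.366, 0.457 and 0.182 between iAs and Cd, and between -0.623 and 0.175 for untreated with a metal. Differently numbered ones reached higher values, 0.686 for untreated 1 with Cd 2 and 0.595 for untreated 3 with Cd 1. Whether the numbers pair these libraries is therefore not known, and no label states it. Signs turned only for uncalled differences near 0: Acat2 (-0.00181) and Abcg1 (0.013) in code ending 52 alone, Mvk with the block (-0.0138) and with equal totals (-0.0178), Sc5d with the block (0.013), and both when single libraries were left out (Mvk -0.0337 to 0.062, Sc5d -0.0282 to 0.013). With single libraries left out, Lbr to Tm7sf2 ranged from 0.29 to 0.39 and Insig1 to Insig2 from 0.33 to 0.42, below the reach of the exact test, and Srebf1 to Srebf2 from -0.0561 to 0.0588. Called small RNA rows moved more. Without a filter 20 were called for Cd and 18 for Mn, with quantile normalization 21 and 24, with the replicate block 23 for Mn, and with 2 groups alone 25 for iAs and 0 for Cd (limma; 132 rows at unadjusted p under 0.05). With single libraries left out, the counts ran from 21 to 80 for iAs, 0 (limma, without Cd replicate 3; 110 rows at unadjusted p under 0.05) to 93 for Cd, 4 to 89 for Mn, and 5 (without Mn replicate 1) to 12 for differences between metals among sterol-linked rows. The core of the sterol response element matched 1 member, and 3 with a free base, in place of 0. Depth is unknown, so counting error could not be given.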
